A study of Homo sapiens with 16 samples.

Results

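Transcripts of 10 genes of the Notch pathway were followed in lung cancer cells treated with hepatocyte growth factor (HGF), the ligand of the receptor tyrosine kinase MET. They were chosen by gene symbol, and they were the receptors NOTCH1, NOTCH2 and NOTCH3, the ligands JAG1, JAG2 and DLL1, the target genes HES1, HEY1 and NRARP, and the fringe enzyme gene LFNG. All 10 were among the 42351 genes of the table and among the 15067 that passed the filter on low counts. The sequenced RNA was polyA RNA of A549 cells, labelled as carrying wt MET, and from NCI-H596 cells, which carry MET∆14, a MET that lacks the juxtamembrane stretch encoded by exon 14. Every culture was first kept without serum, for 12 h in the labels and for longer in the methods of the study, and then left with HGF for 3, 6 or 12 h or collected without it (0 h). There were 2 libraries in each of the 8 conditions, 16 in all. The HGF concentration used for these cultures is not given in the sources used here. Each form of MET was represented by 1 cell line, so the form of MET and the line cannot be told apart, and with untreated cells at 0 h alone, HGF and time in culture cannot be told apart either. The text of the study names EKVX, not A549, as its wt MET line. The study calls the libraries of a condition biological replicates, and the labels do not say which came from separate cultures, so the p-values measure the spread between these libraries.

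Notch receptors are cleaved when a ligand on a neighbouring cell binds them, and their intracellular domain then enters the nucleus, where it joins the DNA-binding protein RBPJ and Mastermind-like co-activators to switch on target genes such as HES1, HEY1 and NRARP. HES and HEY proteins are transcriptional repressors, HES1 also represses its own gene, and NRARP limits the activity of the nuclear Notch complex. Fringe enzymes such as LFNG add sugars to the receptors and thereby change their response to Delta and Jagged ligands. In airway epithelium the pathway takes part in the choice between basal, secretory and ciliated cells.

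The target gene HES1 moved in opposite directions in the lines. After HGF it rose 3 h into treatment with wt MET, by 1.68 on the log2 scale, and it fell at every time with MET∆14, reaching -1.37 at 12 h. HEY1 and NRARP rose with wt MET and passed the test at no time with MET∆14. LFNG fell in both lines, earlier with MET∆14, while JAG1 rose and JAG2 fell in both. A gene is said here to rise, fall or differ where the adjusted p of the quasi-likelihood test of edgeR, corrected by Benjamini and Hochberg over all 15067 genes, was under 0.05. Levels are in CPM, counts scaled to library size, which compare 1 gene among libraries, and fold changes are given on the log2 scale with their standard error (SE), against 0 h of the same line.

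**Figure D1:**
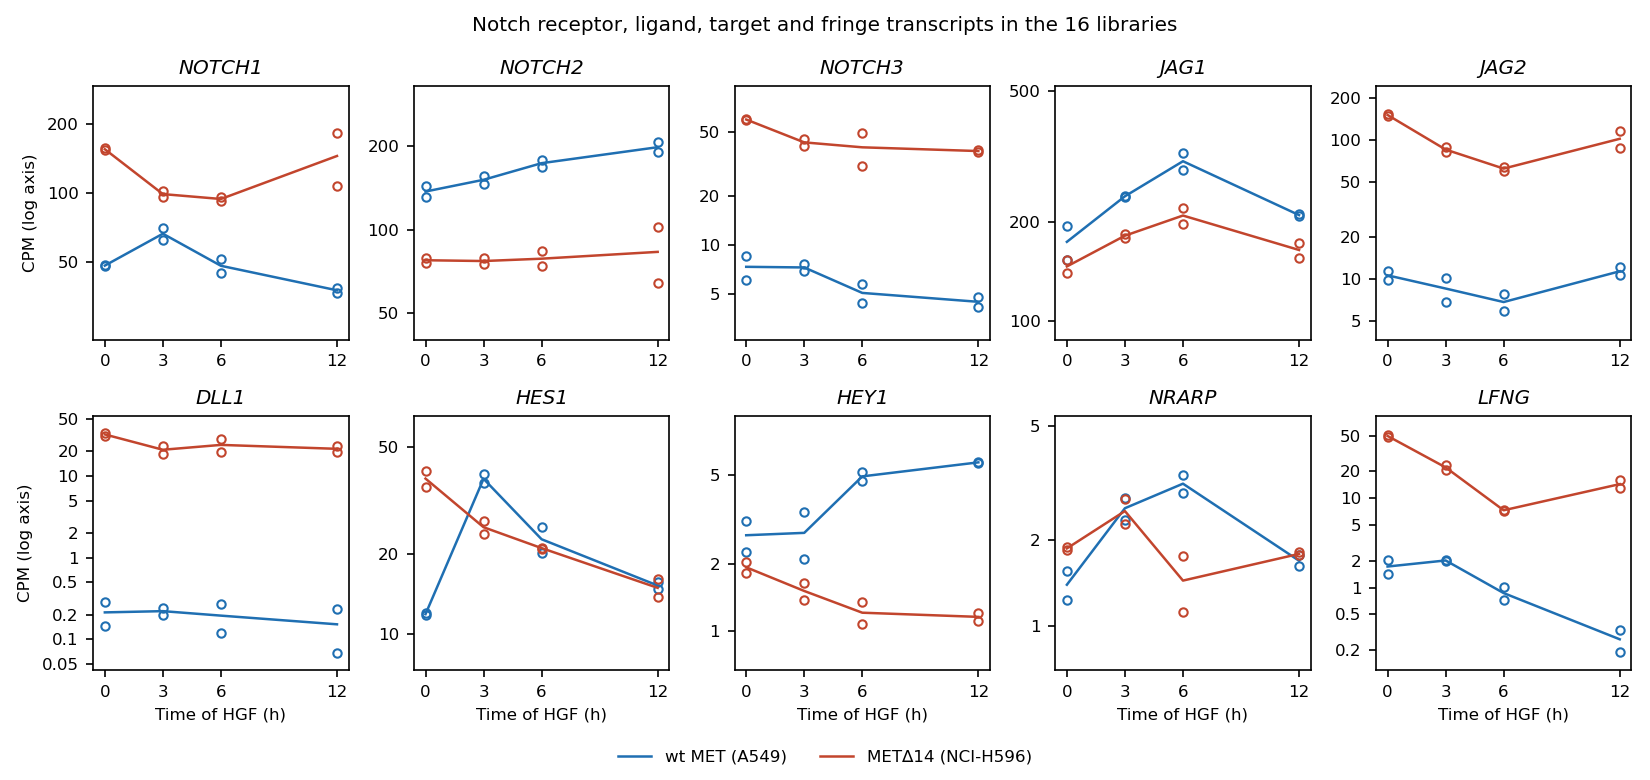
Level of the 10 Notch genes in CPM (log axis, with its own range in each panel) against the time of HGF in hours, with 1 open circle per library and a line through the mean of the 2 libraries of each condition (blue, wt MET; red, MET∆14). HES1 peaks at 3 h with wt MET, between 36.6 and 39.5 CPM, and declines from 35.5 and 40.7 CPM at 0 h with MET∆14.

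The libraries held between 10158590 and 23909304 counts. Replicates differed by more than counting noise in every condition, with a chi-square per degree of freedom from 2.75 (wt MET, 6 h) to 9.80 (wt MET, 0 h) in 7 conditions and of 34.1 for the 12 h libraries of MET∆14, which therefore stood apart. All 5 epithelial markers exceeded 3 counts in both lines, but their levels differed. EPCAM held 0.868 to 2.97 CPM with wt MET and 24.4 to 37.4 CPM with MET∆14, and CDH1 2.54 to 12.6 and 80.7 to 125 CPM. KRT19 held 26.7 to 53.1 CPM with wt MET and 931 to 1754 CPM with MET∆14. KRT18 was lower with MET∆14, at 358 to 701 CPM against 1213 to 1523 CPM, and the ranges of KRT8 overlapped. The 5 squamous markers summed to 2317 to 3276 CPM with MET∆14 and to 1.21 to 3.57 CPM with wt MET, where KRT5 did not exceed 3 counts in any library. KRT5 made up most of the MET∆14 sum, at 1743 to 2461 CPM. TP63, KRT6A and DSG3 were each at least 52.3 CPM with MET∆14 and at most 2.56 CPM with wt MET. SOX2 was low in both lines, at most 2.35 CPM with MET∆14 and 1.35 CPM with wt MET. Of the 3 lung adenocarcinoma markers, SFTPB was at this floor in both lines and NKX2-1 in MET∆14 alone, and the list summed to at most 2.26 CPM with wt MET and 0.438 CPM with MET∆14. Among fibroblast markers, COL1A2, DCN and LUM were at the floor in both lines, while the list of 6 summed to 11.4 to 19.4 CPM with wt MET and 187 to 346 CPM with MET∆14. The 4 endothelial markers summed to at most 1.99 CPM with CDH5 and TEK at the floor in both lines. PTPRC, CD3E and LYZ were at the floor in both, and the 4 leukocyte markers summed to 34.3 to 41.8 and 108 to 154 CPM. CDKN2A, a gene that A549 cells are known to lack, did not exceed 3 counts in the wt MET libraries. The fibroblast sum with MET∆14 came mainly from COL3A1, at 170 to 328 CPM, and PDGFRB was at the floor there. CD68 alone made up nearly all of the leukocyte sums, at 34.3 to 41.8 CPM with wt MET and 108 to 154 CPM with MET∆14. The differences in these 2 sums thus rest mainly on 1 gene each and do not show a difference in fibroblasts or leukocytes. The squamous sum, COL3A1 and CD68 differ between the lines as several Notch genes do, and their part in those differences was not tested. In these bulk samples, fewer cells that express a gene cannot be told apart from less RNA per cell.

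Before HGF the lines held different shares of receptor and ligand transcripts, though NOTCH1, NOTCH2, NOTCH3, JAG1 and JAG2 were present in both. Of the 10 genes, 8 differed between the lines at 0 h, and 80.2% of all genes tested did, so the count of 8 is at the background. NOTCH1, NOTCH3, JAG2, DLL1, HES1 and LFNG were higher with MET∆14 (40.6% of all genes), and NOTCH2 and JAG1 were lower there than with wt MET (39.6%). HEY1 (log2 difference, MET∆14 minus wt MET, -0.47 ± 0.27 SE) and NRARP (0.42 ± 0.28 SE) did not pass the test. To compare genes with each other, counts were also divided by the length of all annotated exons (RPKM). With wt MET, NOTCH2 made up 64.0% of the summed RPKM of the 3 receptors at 0 h, NOTCH1 29.9% and NOTCH3 6.06%. In MET∆14 cells the order was NOTCH1 with 53.0%, NOTCH3 with 27.2% and NOTCH2 with 19.9%, and the 2 libraries of each of these conditions gave the same order. Among ligands, JAG1 took 91.5% in wt MET cells, whereas in MET∆14 cells JAG2 took 49.4%, JAG1 32.9% and DLL1 17.6%.

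**Figure D2:**
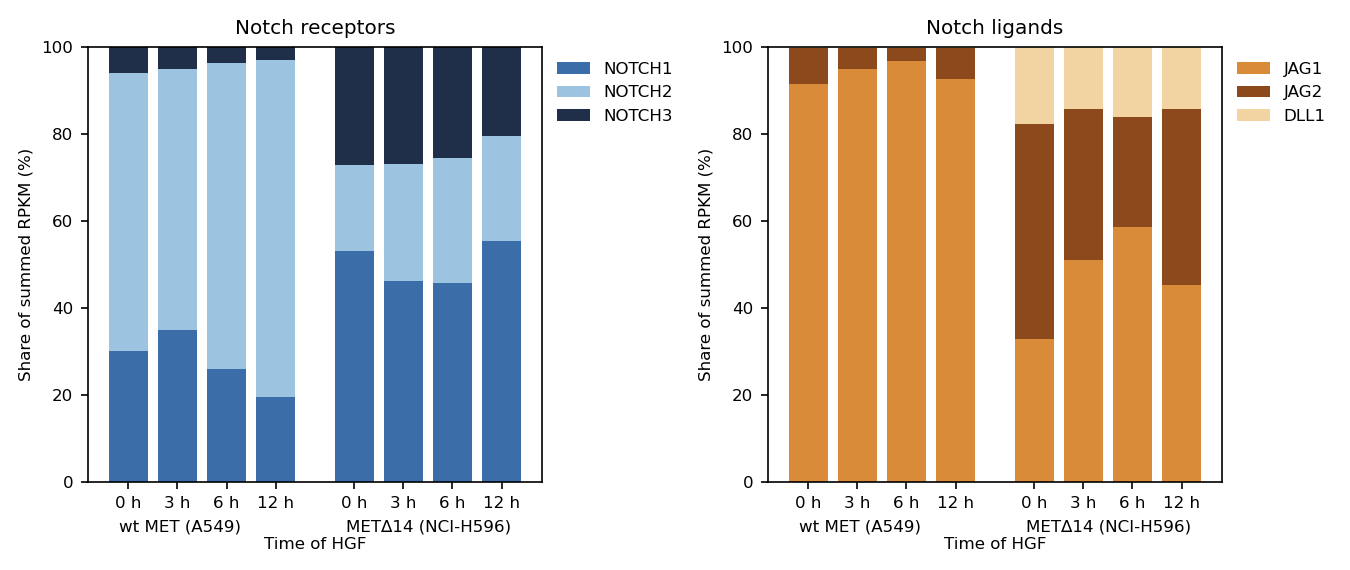
Share (percent) of the summed RPKM held by each Notch receptor (left) and ligand (right) at 0, 3, 6 and 12 h of HGF, as stacked bars of the mean of 2 libraries, wt MET on the left and MET∆14 on the right of each panel. NOTCH2 and JAG1 hold most of each wt MET bar, JAG1 overtakes JAG2 in MET∆14 cells from 3 h on, and DLL1 is too small to see with wt MET.

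These shares moved with HGF. NOTCH2 reached 77.4% of the receptor level in wt MET cells at 12 h. In MET∆14 cells JAG1 passed JAG2 at 3 h, with 51.0% against 34.8%, and at 6 h it held 58.5% against 25.3%. By 12 h they were closer, at 45.2% and 40.4%. With the longest transcript in place of all exons, JAG2 still led at 0 h with 44.1% against 41.5% for JAG1. At 12 h JAG1 held 54.4% by that length and JAG2 34.5%, so how close they came depends on the length used. NOTCH2 and NOTCH3 nearly tied in MET∆14 cells at 0 h by it, at 23.1% and 23.4%. How far apart they lay thus depends on the length as well, while their mean order stayed the same. The other members of these families were low. NOTCH4 stayed between 3 and 15 counts in all libraries. DLL3 had 18 to 39 counts with wt MET and 0 to 3 with MET∆14, and DLL4 had 5 to 26 and 2 to 11.

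Over all times together, 8 of the 10 genes changed with wt MET, against 40.3% of all genes tested, and 7 changed with MET∆14, against 54.1%. With wt MET the median log2 fold change of the 10 was 0.18 at 3 h, 0.17 at 6 h and 0.19 at 12 h, and with MET∆14 it was -0.54, -0.63 and -0.57. The medians of all genes tested lay between -0.05 and 0.00 in these 6 comparisons. At single times with wt MET, 3 genes passed at 3 h (17.4% of all genes), 6 at 6 h (34.2%) and 4 at 12 h (35.1%). For MET∆14 these numbers were 6 (31.7%), 6 (44.1%) and 5 (38.3%), and JAG1 was the only one of the 10 that rose there.

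**Figure D3:**
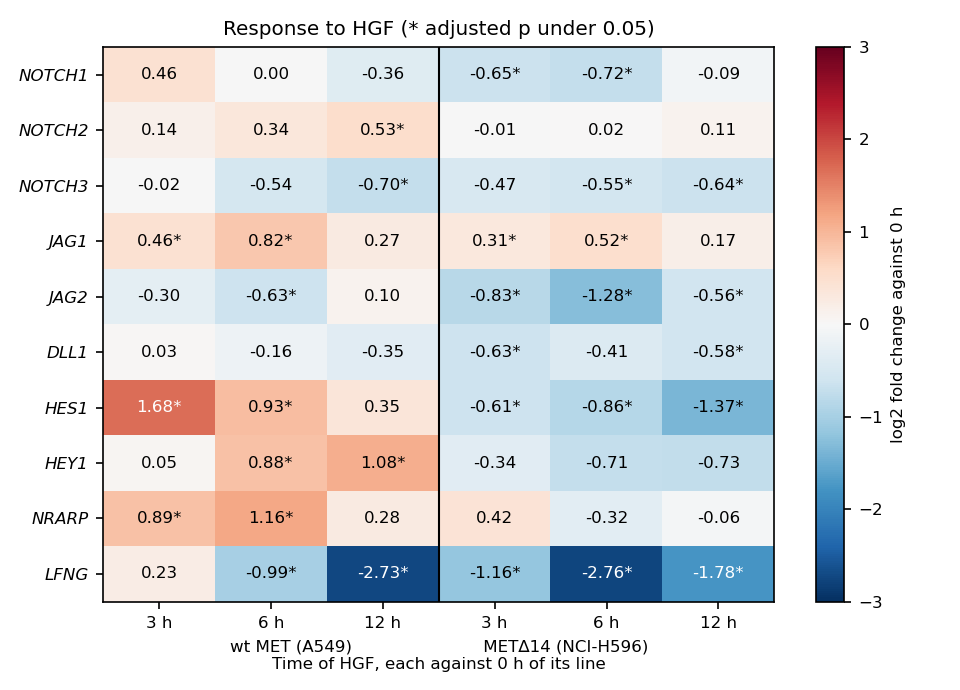
Log2 fold change of the 10 Notch genes (rows) after 3, 6 and 12 h of HGF against 0 h of the same line (columns, wt MET left of the black line and MET∆14 right), with the color scale from -3 (blue) to 3 (red) and an asterisk where the adjusted p is under 0.05. HES1 is red with wt MET and blue with MET∆14, and LFNG at 12 h with wt MET (-2.73) and at 6 h with MET∆14 (-2.76) are the darkest cells. The DLL1 values with wt MET rest on 1 to 5 counts.

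NOTCH1, a receptor of many epithelia, responded differently in the lines. Its gene lies at chr9:136494433-136546048 on the minus strand of hg38. With wt MET the libraries held 47.6 and 48.4 CPM at 0 h, 70.0 and 62.2 at 3 h, 51.1 and 44.8 at 6 h, and 38.5 and 36.5 at 12 h. Its mean was thus highest at 3 h and lowest at 12 h. The test over all times passed (adjusted p = 0.0132), although no single time did (adjusted p = 0.0910 at 3 h and 0.144 at 12 h). With MET∆14 it held 153 and 156 CPM at 0 h, 95.4 and 102 at 3 h, 95.4 and 92.2 at 6 h, and 182 and 107 at 12 h. It fell by 0.65 ± 0.17 SE at 3 h and by 0.72 ± 0.17 SE at 6 h on the log2 scale (adjusted p = 0.00902 and 0.00311), while the 12 h libraries lay on either side of the untreated ones. The responses differed at 3 h by -1.11 ± 0.24 SE (MET∆14 minus wt MET, adjusted p = 0.00603), and at 6 h by -0.72 ± 0.24 SE (adjusted p = 0.0390), a call lost when any of 7 libraries was left out (highest adjusted p = 0.110). The spread of the 12 h libraries of MET∆14 entered the shared estimate: without them, NOTCH1 with wt MET passed at 3 h (0.47, adjusted p = 0.000158) and at 12 h (-0.35, adjusted p = 0.00151). With MET∆14 at 12 h its log2 fold change was -0.54 without replicate 1 and 0.23 without replicate 2. Without the replicate 1 library of wt MET at 3 h the adjusted p over all times rose to 0.0648, and without replicate 1 of MET∆14 at 3 h the fall at that time had an adjusted p of 0.0659, and 0.0552 with each line fitted alone.

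NOTCH2 rose with wt MET. Its libraries there held 144 and 131 CPM at 0 h, 157 and 147 at 3 h, 169 and 179 at 6 h, and 207 and 191 at 12 h, and the 12 h value was up by 0.53 ± 0.15 SE (adjusted p = 0.0118). That call was lost without wt MET 0 h replicate 2 or 12 h replicate 1 (highest adjusted p = 0.0877), and the test over all times (adjusted p = 0.0374) was lost when any of 12 libraries was left out and with total counts (adjusted p = 0.0573). With MET∆14 it held 75.8 and 79.1, 79.1 and 74.8, 73.6 and 83.4, and 102 and 63.9 CPM at the 4 times, so its libraries overlapped those at 0 h throughout, and none of the 3 fold changes passed the test. At 12 h the fold change was -0.28 without replicate 1 and 0.39 without replicate 2, and each passed the test in that fit. The difference in response between the lines did not pass the test (mean -0.30, adjusted p = 0.355), though it did without MET∆14 12 h replicate 1 (adjusted p = 0.000116). The table also holds NOTCH2NLA, a partial copy of NOTCH2 from chromosome 1, with 108 to 321 counts, and reads of the 2 genes may have been split, so the NOTCH2 values are uncertain.

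NOTCH3 was a minor receptor in wt MET cells and fell with MET∆14. With wt MET it held 8.61 and 6.08 CPM at 0 h, 6.88 and 7.68 at 3 h, 4.42 and 5.72 at 6 h, and 4.76 and 4.17 at 12 h. The 12 h value was lower by -0.70 ± 0.25 SE (adjusted p = 0.0408), a call lost when any of 5 libraries was left out (highest adjusted p = 0.349) and without both 12 h libraries of MET∆14 (adjusted p = 0.0774), and the test over all times missed the threshold (adjusted p = 0.0615), which it passed with DESeq2 (adjusted p = 0.0180), total counts (0.0324), no filter (0.000194) and each line fitted alone (0.0147). With MET∆14 it held 59.8 and 59.1 CPM at 0 h, 45.4 and 40.6 at 3 h, 30.8 and 49.4 at 6 h, and 38.8 and 37.3 at 12 h. It fell by 0.55 ± 0.17 SE at 6 h and by 0.64 ± 0.17 SE at 12 h on the log2 scale (adjusted p = 0.0164 and 0.00909). The 6 h call was lost without either MET∆14 library at 0 h or 6 h replicate 1 (highest adjusted p = 0.186), and that over all times without either at 0 h (highest adjusted p = 0.110) or with each line fitted alone (adjusted p = 0.0687). The 6 h fold change was -0.96 without replicate 2 of that time and -0.28, not called, without replicate 1.

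JAG1 was the ligand that rose in both lines. JAG1 is the most widely expressed Jagged ligand, and its gene lies at chr20:10637684-10673999 on the minus strand. With wt MET the libraries held 195 and 153 CPM at 0 h, 239 and 240 at 3 h, 288 and 324 at 6 h, and 211 and 208 at 12 h. With MET∆14 they held 140 and 153, 184 and 179, 197 and 221, and 173 and 156 CPM. The highest level was thus at 6 h in both lines, when JAG1 was up by 0.82 ± 0.11 SE with wt MET (adjusted p = 4.71e-05) and by 0.52 ± 0.11 SE with MET∆14 (adjusted p = 0.00125). From 6 to 12 h it fell with wt MET, by 0.54 ± 0.11 SE on the log2 scale (adjusted p = 0.00407). With MET∆14 that step was -0.35 ± 0.11 SE (adjusted p = 0.0365), and its call was lost when any of 11 libraries was left out. At 3 h it was up by 0.46 with wt MET (lost without 0 h replicate 2, adjusted p = 0.0587) and by 0.31 with MET∆14 (lost without any of 8 libraries, highest adjusted p = 0.228, and with total counts, 0.105). The response did not pass the test of a difference between the lines (mean -0.18, adjusted p = 0.411). The lower level of MET∆14 at 0 h, -0.25 ± 0.11 SE (adjusted p = 0.0465), was lost when any of 13 of the 16 libraries was left out, with an adjusted p of up to 0.607. It was also lost with DESeq2's size factors (adjusted p = 0.0527), total counts (0.329), no filter (0.0590), at least 10 counts in every library (0.232) and the replicate block (0.0556). A noncoding RNA gene on the other strand overlaps 3.29% of its exons.

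JAG2, the other Jagged ligand, was high in MET∆14 cells and fell there. The MET∆14 libraries held 153 and 150 CPM at 0 h, 88.3 and 82.2 at 3 h, 60.1 and 64.3 at 6 h, and 116 and 87.7 at 12 h. All later libraries were below the untreated ones, with falls by 0.83 ± 0.14 SE, 1.28 ± 0.14 SE and 0.56 ± 0.14 SE on the log2 scale (adjusted p = 0.000381, 4.75e-06 and 0.00525), and the level rose again from 6 to 12 h (0.71 ± 0.14 SE, adjusted p = 0.00358). With wt MET it held 11.4 and 9.83 CPM at 0 h, 10.2 and 6.87 at 3 h, 7.81 and 5.85 at 6 h, and 12.1 and 10.6 at 12 h. There the 6 h value was lower by -0.63 ± 0.20 SE (adjusted p = 0.0256) and the level then rose by 0.73 ± 0.19 SE to 12 h (adjusted p = 0.0236). The 6 h call was lost without wt MET 0 h replicate 1 or 6 h replicate 2, and the rise to 12 h without 6 h replicate 2 or either 12 h library (highest adjusted p = 0.218 and 0.242), and the test over all times with wt MET was lost without any of 3 libraries. The difference in response passed at 12 h alone (-0.67 ± 0.23 SE, adjusted p = 0.0496), and not without any of 10 libraries or with total counts (adjusted p = 0.0595). Over all times it did not pass (adjusted p = 0.0951), but it did with DESeq2 (adjusted p = 0.0453), no filter (adjusted p = 0.00409), the replicate block (adjusted p = 0.0437) and without the 12 h libraries of MET∆14 (adjusted p = 0.0252). A noncoding RNA gene on the same strand overlaps 7.33% of the exons of JAG2, so its counts are uncertain to that extent.

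DLL1, a Delta ligand, was close to absent from wt MET cells, with 1 to 5 counts per library, and no change could be detected at this depth. At 0 h its summed counts were 1149 with MET∆14 and 6 with wt MET, a ratio per counted read of 151 (95% exact interval 69.1 to 412, counting error only). With MET∆14 the libraries held 30.9 and 33.5 CPM at 0 h, 23.2 and 18.6 at 3 h, 19.4 and 28.6 at 6 h, and 23.1 and 19.8 at 12 h. It fell by 0.63 ± 0.17 SE at 3 h and by 0.58 ± 0.17 SE at 12 h on the log2 scale (adjusted p = 0.0118 and 0.0160), and the 6 h value of -0.41 ± 0.17 SE did not pass (adjusted p = 0.0621). Without MET∆14 0 h replicate 2 these 2 calls and that over all times were lost, with an adjusted p of up to 0.168 for the last, and the 3 h call was also lost without replicate 2 of that time. The call over all times was lost as well without 0 h replicate 1 (adjusted p = 0.0707), with DESeq2 (adjusted p = 0.0508) and with each line fitted alone (adjusted p = 0.0769). FAM120B, on the other strand, overlaps 9.69% of the exons of DLL1. FAM120B had 283 to 556 counts in the wt MET libraries in which DLL1 had at most 5.

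LFNG, which modifies Notch receptors in the Golgi, fell furthest of the 10. Its gene lies at chr7:2512529-2529177 on the plus strand. With MET∆14 it held 51.7 and 48.0 CPM at 0 h, 20.7 and 23.7 at 3 h, 7.26 and 7.41 at 6 h, and 15.8 and 13.0 at 12 h. These were falls by 1.16 ± 0.13 SE, 2.76 ± 0.14 SE and 1.78 ± 0.14 SE on the log2 scale (adjusted p = 7.55e-06, 3.32e-09 and 2.51e-07), and from 6 to 12 h the level rose by 0.98 ± 0.15 SE (adjusted p = 0.000537). With wt MET it was far lower, at 2.03 and 1.41 CPM at 0 h, 2.0 and 2.02 at 3 h, 0.726 and 1.01 at 6 h, and 0.191 and 0.336 at 12 h. The last pair rests on 4 and 5 counts, and the summed level at 0 h was 6.84 times that at 12 h (95% exact interval 3.32 to 15.9). The fold change with wt MET was -0.99 ± 0.30 SE at 6 h (adjusted p = 0.0193, lost without 0 h replicate 1 or 6 h replicate 1, up to 0.230, and with each line fitted alone, 0.0503) and -2.73 ± 0.38 SE at 12 h (adjusted p = 8.43e-05). The time courses differed between the lines, by -1.39 ± 0.29 SE at 3 h and -1.77 ± 0.35 SE at 6 h (MET∆14 minus wt MET, adjusted p = 0.00385 and 0.00143). At 12 h the difference had the other sign and did not pass (0.95 ± 0.42 SE, adjusted p = 0.121).

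HES1 encodes a basic helix-loop-helix repressor, and its gene lies at chr3:194136148-194138732 on the plus strand. The 250 bases before its start are shown because HES1 is the target gene that moved in both lines, and those before the start of NRARP, at chr9:137302272-137302521 on the minus strand, are shown for comparison. They are RefSeq sequence of GRCh38.p14, 5′ to 3′ in the direction of the gene, HES1 from chr3:194135898-194136147, and the capitals mark matches to TGGGAA, the core of the site that RBPJ binds, or to its longer form GTGGGAA.
HES1: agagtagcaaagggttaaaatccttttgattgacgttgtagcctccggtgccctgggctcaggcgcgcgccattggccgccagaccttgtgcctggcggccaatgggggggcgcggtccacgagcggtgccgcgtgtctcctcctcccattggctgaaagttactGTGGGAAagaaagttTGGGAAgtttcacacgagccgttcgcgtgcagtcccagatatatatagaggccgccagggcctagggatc
NRARP: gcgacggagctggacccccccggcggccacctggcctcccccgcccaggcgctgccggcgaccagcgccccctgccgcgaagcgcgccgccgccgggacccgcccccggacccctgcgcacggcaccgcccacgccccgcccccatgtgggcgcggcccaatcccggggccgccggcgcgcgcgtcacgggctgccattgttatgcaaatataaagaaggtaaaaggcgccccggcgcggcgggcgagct

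The HES1 window held TGGGAA at 2 places, with first bases 84 and 70 before the start, and the former is also its match to GTGGGAA, which begins at 85. Searched on both strands, TGGGAA was present in 20.85% and GTGGGAA in 5.428% of 35116 such windows, which leave out chromosome 8. The window also held 4 matches to CACGNG and 3 to CACNAG, letters of the sites that HES and HEY proteins bind, of which the matches at 132 and 58 were shared by both motifs. CACGNG was present in 26.67% and CACNAG in 32.04% of these 35116 windows. NRARP had none of the letters TGGGAA and 1 match to CACGNG. Of the other genes, windows for NOTCH1, NOTCH2, NOTCH3, JAG1, JAG2 and LFNG were searched, LFNG at 2 starts, and a second start of LFNG alone held TGGGAA. These matches describe the letters of the windows and no binding was measured.

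In wt MET cells HES1 held 12.0 and 11.7 CPM at 0 h, 36.6 and 39.5 at 3 h, 25.1 and 20.1 at 6 h, and 14.8 and 15.6 at 12 h. All libraries after HGF were above the untreated ones, and the level came down from 3 h on. It was up by 1.68 ± 0.13 SE at 3 h (adjusted p = 4.78e-07) and 0.93 ± 0.13 SE at 6 h (adjusted p = 8.13e-05), and the 12 h value of 0.35 ± 0.13 SE did not pass (adjusted p = 0.0538), though it did without the 12 h libraries of MET∆14 (adjusted p = 0.0275). In MET∆14 cells it held 35.5 and 40.7 CPM at 0 h, 26.5 and 23.7 at 3 h, 20.9 and 21.0 at 6 h, and 13.7 and 16 at 12 h. Here all libraries after HGF were below the untreated ones, with falls by 0.61 ± 0.12 SE, 0.86 ± 0.12 SE and 1.37 ± 0.13 SE on the log2 scale (adjusted p = 0.00113, 3.54e-05 and 1.35e-06). The lines thus started apart, at a log2 difference of 1.68 ± 0.13 SE with MET∆14 higher (adjusted p = 7.25e-09), and at 12 h their libraries overlapped in CPM. The responses differed by -2.29 ± 0.18 SE at 3 h, -1.80 ± 0.18 SE at 6 h and -1.72 ± 0.18 SE at 12 h (adjusted p = 7.27e-07, 3.84e-06 and 1.47e-05). All of these calls held with any library left out. The successive steps were less firm: the fall with wt MET from 3 to 6 h (-0.75, adjusted p = 0.00301) was lost without 6 h replicate 2 (adjusted p = 0.0886), and that from 6 to 12 h (-0.58) without either of 2 libraries. HES1 was the 1 gene of the 10 called higher with wt MET and lower with MET∆14 at the same time, which it was at 3 h, with 0.989% of all genes tested, and at 6 h, with 2.4%.

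HEY1, a related repressor on chromosome 8, was low in both lines and rose late with wt MET. There it held 3.11 and 2.26 CPM at 0 h, 3.41 and 2.10 at 3 h, 5.14 and 4.71 at 6 h, and 5.67 and 5.72 at 12 h. The 6 h and 12 h libraries lay above all earlier ones, with log2 fold changes of 0.88 ± 0.24 SE (adjusted p = 0.0119, lost without 0 h replicate 2 or 6 h replicate 1, up to 0.0891) and 1.08 ± 0.24 SE (adjusted p = 0.00274). In MET∆14 cells it held 1.83 and 2.04 CPM at 0 h, 1.38 and 1.64 at 3 h, 1.35 and 1.07 at 6 h, and 1.2 and 1.11 at 12 h, from 12 to 41 counts. The log2 fold changes of -0.34, -0.71 and -0.73 did not pass the test (adjusted p = 0.395, 0.0589 and 0.0684). The difference in response passed at 6 h (-1.58 ± 0.38 SE, adjusted p = 0.00498) and at 12 h (-1.81 ± 0.38 SE, adjusted p = 0.00312), and not at 3 h (-0.40 ± 0.39 SE, adjusted p = 0.558).

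NRARP, a small ankyrin repeat protein and feedback inhibitor of Notch, was low throughout. With wt MET it held 1.23 and 1.56 CPM at 0 h, 2.80 and 2.34 at 3 h, 2.91 and 3.36 at 6 h, and 1.76 and 1.61 at 12 h, from 17 to 50 counts. It was highest at 6 h, 1.16 ± 0.27 SE above 0 h on the log2 scale (adjusted p = 0.00388), and the 3 h value of 0.89 ± 0.28 SE (adjusted p = 0.0400) lost its call without any of 6 libraries (highest adjusted p = 0.207), with DESeq2 (adjusted p = 0.116), total counts (0.0523), no filter (0.0646) and the replicate block (0.0544). With MET∆14 it held 1.89 and 1.84, 2.77 and 2.26, 1.12 and 1.76, and 1.81 and 1.76 CPM, and no time passed the test. The lines differed in their 6 h response by -1.48 ± 0.38 SE (adjusted p = 0.00818). Over all times the difference had an adjusted p of 0.0252, which was lost without wt MET 6 h replicate 2, MET∆14 0 h replicate 1 or MET∆14 6 h replicate 1 (highest adjusted p = 0.0953), and with DESeq2 (adjusted p = 0.0929). A noncoding RNA gene on the other strand overlaps 2.76% of its exons.

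The test of the difference in response over all times passed for 5 of the 10 genes, NOTCH1, HES1, HEY1, NRARP and LFNG, against 37.6% of all genes tested. All 5 were lower in their response with MET∆14, a direction in which 17.3% of all genes were called. The mean difference over the 3 times was negative for all 10, with a median of -0.57. Among the 15067 genes tested it was negative for 7260, with a median of 0.02. For NOTCH2, NOTCH3, JAG1, JAG2 and DLL1 the difference did not pass the test, and the DLL1 value rests on 1 to 5 counts per library with wt MET. At single times the difference passed for 3 genes at 3 h (17.4% of all genes), 5 at 6 h (30.2%) and 3 at 12 h (24%). In the additive model, with a term for each line and each time, which asks for a change that the lines share, 4 genes passed, against 30.6% of all genes. Of these, JAG1 was higher (13.4% of all genes), and NOTCH3, JAG2 and LFNG were lower (17.2%). HES1 was not among them with edgeR (mean -0.15, adjusted p = 0.0778). It passed there with DESeq2 (adjusted p = 0.0338), with no filter on low counts (adjusted p = 1.6e-10) and without either wt MET library at 0 h (adjusted p = 0.0362 and 0.0316), so its call in the additive model depends on the fit.

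**Figure D4:**
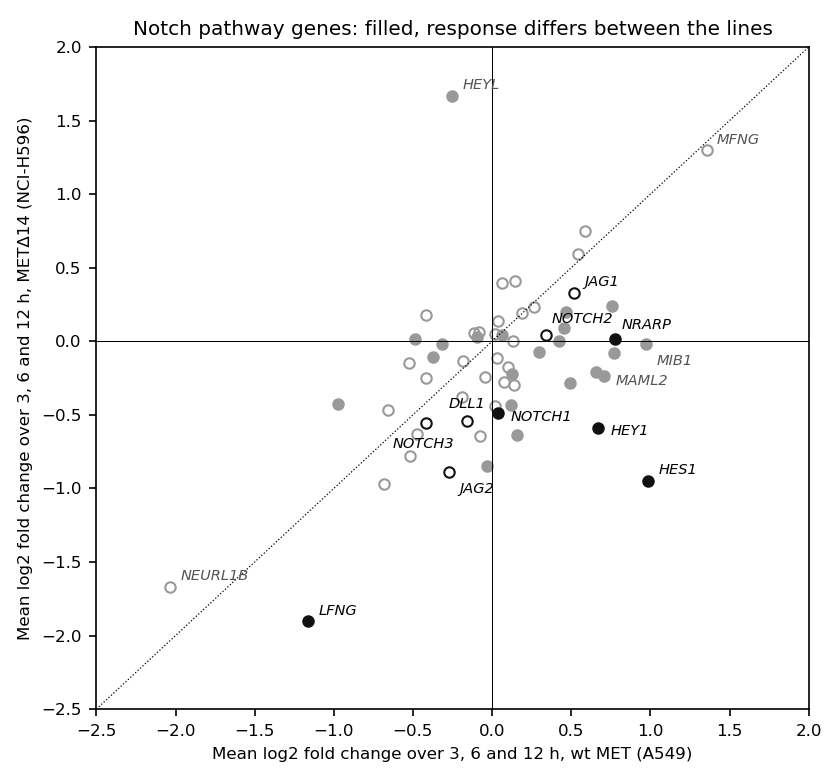
Mean log2 fold change over 3, 6 and 12 h of HGF with wt MET (x axis) and with MET∆14 (y axis) for the 10 Notch genes (black) and 50 further genes of the pathway (grey), filled where the response differed between the lines and with a dotted line where both responses are equal. HES1 lies at 0.99 and -0.95, below the dotted line, and HEYL lies furthest above it. HES5, with 0 counts in every wt MET library, is not drawn.

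Between successive times, 2 of the 10 genes changed from 3 to 6 h with wt MET, HES1 and LFNG (3.1% of all genes tested), and 5 from 6 to 12 h (11.6%), where JAG1, HES1, NRARP and LFNG fell and JAG2 rose. For NRARP the 6 to 12 h step was -0.88 ± 0.25 SE (adjusted p = 0.0346, lost without any of 4 libraries), and LFNG fell by 1.22 ± 0.29 SE and then by 1.74 ± 0.43 SE on the log2 scale (adjusted p = 0.0360 and 0.0162, lost without any of 7 and of 2 libraries). With MET∆14, LFNG changed from 3 to 6 h (9.77%), by -1.60 ± 0.15 SE (adjusted p = 2.32e-05). From 6 to 12 h, 5 genes changed there (18.6%): NOTCH1, JAG2 and LFNG rose, whereas JAG1 and HES1 fell. The NOTCH1 step (0.63, adjusted p = 0.0195) and the HES1 step (-0.50, adjusted p = 0.0140) were each lost when any of 3 libraries was left out, 12 h replicate 1 among them.

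A further 53 genes of the pathway were examined by role, of which 51 were tested. With wt MET 24 changed, 15 upward by their mean and 9 downward, and with MET∆14 30 changed, 10 upward and 20 downward. Beside the shares of all genes already given, 40.3% and 54.1%, these are 24 and 30 of 51. The response differed between the lines for 21 of the 51, beside 37.6% of all genes tested. By their mean, 15 of the 51 were called lower with MET∆14, beside 17.3% of all genes, and 6 were called higher. Genes of the nuclear complex and its co-repressors, 13 in the list, changed in 8 cases in each line: 7 upward and 1 downward with wt MET, and 3 upward and 5 downward with MET∆14. For 7 of these 13 the response differed, and in all 7 its mean was lower with MET∆14. The other roles were not so one-sided. Of 13 tested genes of endocytosis and turnover the response also differed for 7, of which 2 were higher and 5 lower. For fringe and O-glycosylation it differed for 3 of 5 genes, 2 higher and 1 lower. RBPJ, named here after its values were seen, held 71.0 and 74.9 CPM at 0 h with wt MET and 107 and 102 at 12 h, a rise of 0.52 (adjusted p = 0.000157). In MET∆14 cells RBPJ held 61.1 and 59.6 CPM at 0 h and 59.9 and 67.4 at 12 h. Its difference in response over all times had an adjusted p of 0.0128, and was lost without replicate 1 at 0 h of either line (highest adjusted p = 0.0645).

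MAML2, a Mastermind-like co-activator, held 9.84 and 8.98 CPM at 0 h with wt MET and 24.8 and 22.3 at 12 h, and it rose by 1.33 (adjusted p = 4.93e-06). With MET∆14 it held 25.0 and 25.7 CPM at 0 h and fell to 14.7 and 17.2 at 6 h (-0.66, adjusted p = 0.000468). MIB1, a ubiquitin ligase that lets cells with a ligand on their surface send the signal, rose with wt MET from 65.5 and 51.3 CPM at 0 h to 130 and 134 at 6 h (1.17, adjusted p = 3.99e-06), and its value with MET∆14 was -0.17 at 6 h (adjusted p = 0.266). The difference in response passed for both genes (mean -0.94 for MAML2 and -0.99 for MIB1, adjusted p = 5.36e-06 and 0.000164). NEURL1B, another ubiquitin ligase of this step, fell in both lines. It went from 94.4 and 98.8 CPM at 0 h to 22.6 and 23.6 at 6 h with MET∆14 (-2.06, adjusted p = 1.60e-09), and with wt MET from 22 or fewer counts at 0 h to 3 and 4 at 6 h (-2.67, adjusted p = 2.66e-05). MFNG, a second fringe gene, went the other way from LFNG. MFNG rose with MET∆14 from 2.67 and 3.48 CPM at 0 h to 6.89 and 7.33 at 6 h, and to 15.5 and 7.23 at 12 h (mean 1.3, adjusted p = 0.00138). With wt MET its mean was 1.35 (adjusted p = 0.0363), lost without any of 4 libraries.

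Among the other HES and HEY genes, HEYL, a Notch target in vascular smooth muscle, held 10.5 to 16.3 CPM in wt MET libraries and 0.261 to 1.37 CPM with MET∆14, where it rose from 10 summed counts at 0 h to 35 at 3 h, a ratio of 4.15 per counted read (95% exact interval 2.01 to 9.39). The response of HEYL differed between the lines (mean 1.92, adjusted p = 0.0146), a call lost without either MET∆14 library at 0 h. HES5 had 0 counts in every wt MET library, which allows up to 0.0245 CPM over the 8 libraries, and 7 to 20 counts with MET∆14. HEY2 had 0 to 3 counts with wt MET and 6 to 32 with MET∆14, and HES7 had 2 to 13 and 0 to 5. HES6, also named after its values were seen, was present in both lines at 4.92 to 7.36 CPM with wt MET and 8.73 to 15.6 CPM with MET∆14 and did not pass the test over all times in either (adjusted p = 0.946 and 0.0841). HES4 rose with wt MET at 6 h (0.69, adjusted p = 0.00265) and with MET∆14 at 3 h (0.58, adjusted p = 0.00359). HES2, named here after its values were seen, fell at 6 h in both lines, by 1.49 on the log2 scale with wt MET (adjusted p = 0.00563, lost without 0 h replicate 2) and by 1.27 with MET∆14 (adjusted p = 0.000226).

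Likeness to HES1 and JAG1 was measured over the 8 condition means, after the mean of each line had been taken out, among the 8530 genes whose mean log2 CPM reached 3. The genes most like HES1 were EPC1 (Pearson's r = 0.970), EGR1 (0.967) and CCNL1 (0.966), and by Spearman's rho EGR1, EPC1 and FAM120B, all at 0.976. EGR1, an immediate early transcription factor, moved in the same directions over a wider range, by 4.72 at 3 h with wt MET and -2.81 at 12 h with MET∆14 on the log2 scale (adjusted p = 5.25e-08 and 2.16e-06). EPC1 moved by 0.96 and -0.70 at those times. For JAG1 they were RPS6KB1 (0.970), INPP5A (0.968) and PCDH1 (0.967), and by Spearman's rho NPTX1, PGGT1B and RPS6KB1, all at 1. INPP5A was up at 6 h by 0.62 with wt MET and 0.56 with MET∆14. These correlations are descriptions over 8 points that share 2 lines, and the best of many genes is high by construction.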

How the data were processed

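PolyA RNA of the 16 libraries was sequenced by the authors, who trimmed adapters and mapped the reads to hg38. The submitters' processing notes name STAR 2.5.0 and RSEM 1.3.2. They deposited whole-number counts per gene, without normalization, and these may be rounded RSEM estimates. Whether counting used strand is not given in the sources used here. The columns of the wt MET libraries begin with another line name (H549) than the titles have, and the remainder of each name gave the match.

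Tests on the deposited counts used edgeR 4.0.16 under R 4.3.3. Genes were kept by filterByExpr (minimum count 10, minimum total count 15) and scaled by TMM. A quasi-likelihood model with robust estimation and 1 coefficient per condition was fitted to all 16 libraries, which share 1 estimate of the spread, with F tests over the 3 times and over the differences between the lines. The study used DESeq2 with additive terms, and both its additive formula and DESeq2 1.42.0 were run. Adjusted p-values are those of Benjamini and Hochberg. CPM use the scaled library sizes. RPKM, coordinates and overlaps use GENCODE annotation on hg38, and promoter windows use RefSeq tables. Windows on chromosome 8, where HEY1 lies, were left out before the search, and windows of 8 of the 10 genes were searched. Groups at or under 3 counts in every library were taken as at the floor, and intervals cover counting error only.

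All 10 genes are named throughout. Of the wider list the rule named the 3 genes per line with the largest absolute mean change among those called, the 3 with the largest difference, and the close relatives of the 10. The genes, lists and rules were chosen with earlier results of these data known. The scripts were tested on simulated data. The alternatives were other scaling factors, other filters, DESeq2, each line fitted alone, a replicate block and leaving out each library. Leaving out the 12 h libraries of MET∆14 was chosen after seeing the data.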

Additional observations from a re-analysis of the deposited data

Results flagged for a closer look

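The response to HGF over 3, 6 and 12 h differed between wt MET and MET∆14 cells in the test of the difference itself for 5 of the 10 Notch genes, with adjusted p-values (edgeR, Benjamini-Hochberg over all genes tested) of 1.43e-06 for HES1, 0.000263 for LFNG, 0.00165 for NOTCH1, 0.00333 for HEY1 and 0.0252 for NRARP. HES1 was higher after HGF in 6 of 6 wt MET libraries and lower in 6 of 6 MET∆14 libraries. Of all genes tested, 37.6% passed the test of the difference over all times.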

How the results depend on the processing

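Of 100 fold changes and differences of single genes, 49 were called. Of these, 34 kept their call and direction in every fit that gave a value, 15 lost the call when some library was left out, 7 under another setting, and 0 reversed. Each line was 1 cell line with 2 libraries per time, and low counts limit HEY1, NRARP, and DLL1 and LFNG with wt MET.

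With at least 10 counts required in every library, DLL1 and LFNG, which are low with wt MET, were removed. The number of the 10 that differed at 0 h was then 5, at 12 h with MET∆14 3, and from 3 to 6 h with wt MET 1. At 0 h JAG1 was kept by this filter but lost its call (adjusted p = 0.232). With each line fitted alone the number called was 7 at 12 h with wt MET and 2 from 6 to 12 h with MET∆14. From 3 to 6 h with wt MET it was 4 with no filter and 5 without the 12 h libraries of MET∆14. From 3 to 6 h with MET∆14 it was 2 with DESeq2's size factors, total counts, DESeq2, no filter, the replicate block, or without the 12 h libraries of MET∆14. The cause of these shifts was not tested except where the filter shows it.

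The replicate numbers did not pair the libraries: over 28 pairs of conditions the correlation of same-numbered libraries ran from -0.159 to 0.111 and exceeded 0.1 in 1. With the replicate block, 2 single-gene calls were lost, JAG1 at 0 h between the lines and NRARP at 3 h with wt MET, and 1 was gained, the 6 h difference of JAG2.

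With 1 library left out, the number of the 10 called ranged from 1 to 4 at 3 h and from 2 to 6 at 12 h with wt MET, from 0 to 5 for its step from 3 to 6 h and 1 to 6 from 6 to 12 h, and for MET∆14 from 1 to 2 and 2 to 5 for these steps.

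Values near 0 that did not pass the test changed sign. NOTCH1 with wt MET at 6 h was 0.020 with DESeq2's size factors, 0.019 with DESeq2, 0.017 with no filter, 0.025 with at least 10 counts, 0.026 with each line alone and 0.0093 without the 12 h libraries of MET∆14. NOTCH2 with MET∆14 at 3 h was 0.0063, 0.0069, 0.040 and 0.034 with DESeq2's size factors, DESeq2, each line alone and without the 12 h libraries, and at 6 h -0.12 with total counts and -0.018 with at least 10 counts. NOTCH3 with wt MET at 3 h was 0.0093 with no filter, 0.00096 with at least 10 counts and 0.0051 with each line alone, and its 6 h difference was 0.016 without the 12 h libraries. With total counts DLL1 and HEY1 with wt MET at 3 h were -0.055 and -0.037.

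With 1 library left out, such values ranged as follows. NOTCH1 ran from -0.079 to 0.11 with wt MET at 6 h, -0.54 to 0.23 with MET∆14 at 12 h and -0.18 to 0.59 for the 12 h difference. NOTCH2 with MET∆14 ran from -0.045 to 0.029 at 3 h, -0.083 to 0.098 at 6 h and -0.28 to 0.39 at 12 h. NOTCH3 ran from -0.22 to 0.26 with wt MET at 3 h, -0.44 to 0.24 for the 6 h difference and -0.21 to 0.29 for that at 12 h. The 12 h difference of JAG1 ran from -0.29 to 0.062, and JAG2 with wt MET at 12 h from -0.0085 to 0.22. DLL1 with wt MET ran from -0.35 to 0.60 at 3 h, -0.77 to 0.41 at 6 h and -1.57 to 0.19 at 12 h, and its differences from -0.83 to 0.35 at 6 h and -0.78 to 0.99 at 12 h. HEY1 with wt MET at 3 h ran from -0.32 to 0.36.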
